A study of Mus musculus with 2 samples.

Results

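The Bcl11, Gfi1 and Myb regulators are 7 mouse genes for DNA-binding proteins in 3 paralogue families: Bcl11a and Bcl11b, Gfi1 and Gfi1b, and Myb, Mybl1 and Mybl2. They were chosen by name, through every non-control probe annotated to one of them, and make up 7 of the 22221 named genes on the array and 11 of its 55681 probes. The study measured total RNA of P5424, a mouse T-cell line, on 2 one-colour Agilent arrays with 60-base probes, called replicate 1 and replicate 2. Per the labels the cells carried a knockout of Rag2 and P53, received no treatment and grew in RPMI1640 medium to which 0.1 mM 2-mercaptoethanol and fetal bovine serum (10%) were added. From each sample 200 ng of RNA was labelled with Cy3. All these conditions were shared by both arrays, so there was 1 group and no second condition, and no test between groups was possible. P5424 is a single established line, and no label tells if the pair of samples came from separate cultures, so their spread may be only technical.

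BCL11 proteins are zinc finger repressors that work with the NuRD and BAF chromatin complexes. BCL11B is required for commitment of thymic precursors to the T lineage, whereas BCL11A is known from B cells, plasmacytoid dendritic cells and the control of fetal globin genes. GFI1 and GFI1B are zinc finger repressors that recruit the histone demethylase LSD1 and its partner CoREST through a short domain called SNAG. GFI1 acts in lymphoid and granulocytic cells, and GFI1B in red cell and platelet precursors. MYB proteins bind DNA through repeated MYB domains. MYB is needed at several steps of thymocyte development, MYBL2 (B-MYB) joins the MuvB complex to switch on genes of mitosis in dividing cells, and MYBL1 (A-MYB) drives meiotic genes in spermatocytes.

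The probes are shown first because every value below is the signal of one of them. A probe of each gene is given 5′ to 3′, as the last 30 bases or a 30-base stretch of the probe, or whole for Bcl11b. Capitals mark AATAAA, the common polyadenylation signal, or, in Bcl11b, codons with the cysteine and histidine spacing of a C2H2 zinc finger up to its first histidine. Positions are those of the whole probe in the file on mouse build mm9.
Bcl11a, base 2264, + strand, chr11:24074059-24074118: gctggattccttcctgcttattcatcataa
Bcl11b, base 2413, - strand, chr12:109153847-109153906: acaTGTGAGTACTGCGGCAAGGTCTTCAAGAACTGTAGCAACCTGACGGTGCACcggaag
Gfi1, base 2757, - strand, chr5:108145719-108145778: tgagtgcattatgtattagcataatcatat
Gfi1b, base 1651, - strand, chr2:28464982-28465041: gttgatgtaaatgtaAATAAAggtgggttt
Myb, base 3717, - strand, chr10:20844736-20844795: ctgccttgtagcaaAATAAAgctatcctct
Mybl1, base 3282, - strand, chr1:9659134-9659193: catagtaaacaataactttgactttcaagt
Mybl2, base 2623, + strand, chr2:162909345-162909404: tacactgtccccacAATAAAatgccattct
Mybl2, base 3642, + strand, chr2:162910364-162910423: tcagccaagttgacAATAAAgagtaacaca
The base is where the probe starts in its annotated transcript. The probes of Bcl11a, and likewise those of Bcl11b, are annotated to different transcripts, so their bases do not give their order along the gene. The Bcl11b probe at base 2413 was the only one of the 11 whose open reading frame held the zinc finger spacing. AATAAA occurred in the probes of Gfi1b and Myb and in both probes of Mybl2, so in 4 of 11, of which 3 were detected. Over all probes, 10.1% held AATAAA, and 49.7% of these were detected against 39.0% of the others. Exon and UTR boundaries at these positions were not analysed here.

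One paralogue or more of each family was detected in P5424 cells, and in each family another was not. Detected means that the scanner software marked the spot well above background on both arrays, and a gene counts as detected when any of its probes does. Bcl11b, Gfi1, Myb and Mybl2 were detected, with every one of their 6 probes, and Bcl11a, Gfi1b and Mybl1 were not, with none of their 5. This is 4 of 7 genes, where 51.7% of all named genes were detected, and 6 of 11 probes, where 40.1% of all probes were. The gene count lies close to its background, and neither count is read as setting these genes apart. The processed signals of the detected probes ran from 5108 to 29832 intensity units and those of the undetected probes from 6.79 to 18.4, with nothing between. Values are further given as log2 of the processed signal relative to the 75th percentile of all probes on the same array, which was 324 units on replicate 1 and 299 on replicate 2. Since probes differ in how well they bind, no probe's level was set against another's, and paralogues were compared by detection alone. In bulk RNA, fewer cells with a transcript and less of it per cell cannot be told apart.

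**Figure D1:**
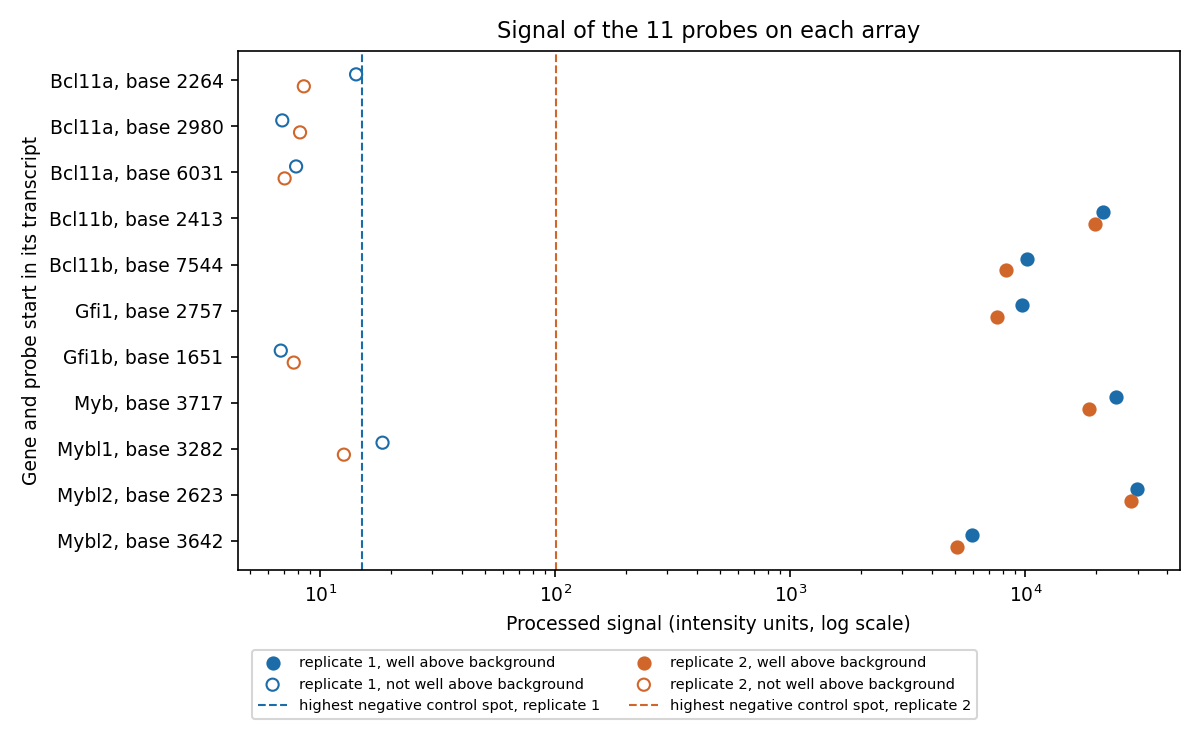
Processed signal in intensity units (log axis) of the 11 probes, 1 row per probe named by gene and start base, with replicate 1 in blue and replicate 2 in orange. Filled circles are well above background and open circles are not, and the dashed lines are the highest negative control spot of each array, at 15.1 and 101. The 6 probes of Bcl11b, Gfi1, Myb and Mybl2 lie at 5108 or above on both arrays, and the 5 probes of Bcl11a, Gfi1b and Mybl1 at 18.4 or below.

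Bcl11b, the T-lineage member of its family, was bright with both probes. The probe at base 2413 had signals of 21363 on replicate 1 and 19827 on replicate 2, which scale to 6.05 ± 0.01 (SD, n = 2). The probe at base 7544 of another annotated transcript, at chr12:109148932-109148991, had 10151 and 8307 units and a value of 4.88 ± 0.12 (SD, n = 2). Both probes were thus far above background on both arrays, and their positions on the chromosome do not overlap.

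For Bcl11a, all 3 probes failed to rise well above background on both arrays. The probe at base 2264 had signals of 14.2 on replicate 1 and 8.51 on replicate 2, and the software's two-sided test of a spot against its background called it positive and significant on replicate 1 alone. The probe at base 2980, at chr11:24073114-24073173, had 6.89 and 8.20 units. The probe at base 6031, at chr11:24068355-24068414, had 7.89 and 7.05 units and was likewise called positive on replicate 1 alone. The 308 negative control spots had medians of 6.55 on replicate 1 and 7.50 on replicate 2. The base 2264 signal of replicate 1 lay between the second highest control of that array (10.6) and the highest (15.1). Of the 10 spots of undetected member probes on both arrays, 6 carried a surrogate, a value the software puts in place of a signal too close to background, so the order of such signals has no meaning.

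Gfi1 had 1 probe, with signals of 9638 on replicate 1 and 7591 on replicate 2 and a value of 4.78 ± 0.16 (SD, n = 2). Its paralogue Gfi1b also had 1 probe, with 6.79 and 7.71 units, surrogates on both arrays, and it was not well above background. Gfi1 was therefore the one member of this family seen above background.

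Myb had 1 probe, with signals of 24333 on replicate 1 and 18700 on replicate 2 and a value of 6.10 ± 0.18 (SD, n = 2). Mybl2 had signals of 29832 and 28166 at base 2623, a value of 6.54 ± 0.03 (SD, n = 2). Its second probe, at base 3642, gave 5940 and 5108 units and 4.15 ± 0.07 (SD, n = 2). Both probes of Mybl2 were detected, so the call does not rest on a single stretch of the transcript.

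Mybl1 was the member whose call depended on the criterion. Its single probe had signals of 18.4 on replicate 1 and 12.6 on replicate 2. Neither was well above background, yet the software called both spots positive and significant against their background. Under the looser criterion of a positive and significant spot on both arrays, Mybl1 counted as detected, giving 5 of 7 genes, where 67.5% of all named genes passed, and 7 of 11 probes, where 60.3% of all probes did. The Mybl1 signal was above the highest negative control of replicate 1 (15.1) and below that of replicate 2, where 1 control spot reached 101 and the next highest 17.6. The Mybl1 probe also shares a run of 16 bases on the same strand with a probe of Gramd3, which was detected with signals of 1365 and 1321. The part of that run in the Mybl1 signal was not tested.

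The undetected probes had a GC content of 35.0% to 38.3% and the detected ones of 35.0% to 53.3%, around an array median of 43.3%. Of the 17972 probes on the array with a GC content in the range of the undetected member probes, 39.7% were detected, close to the 40.1% of all probes.

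The detected regulators differed little between the arrays. The scaled value on replicate 2 minus that on replicate 1 was 0.01 and -0.17 for the 2 Bcl11b probes, -0.23 for Gfi1, -0.26 for Myb, and 0.04 and -0.10 for Mybl2. The scanner software's own error, 10.0% per spot, gives an error of 0.20 for such a difference, so that Gfi1 and Myb lie just beyond it and the other 4 probes within it. Over all 22321 detected probes the median absolute difference was 0.18, and the 10th and 90th percentiles were -0.36 and 0.41, so all 6 lie inside that span. A larger absolute difference was found in 35.2% of detected probes for Myb and in 41.5% for Gfi1. None of the 6 probes differed by more than 2-fold between the arrays. Of all detected genes, 0.783% did.

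**Figure D2:**
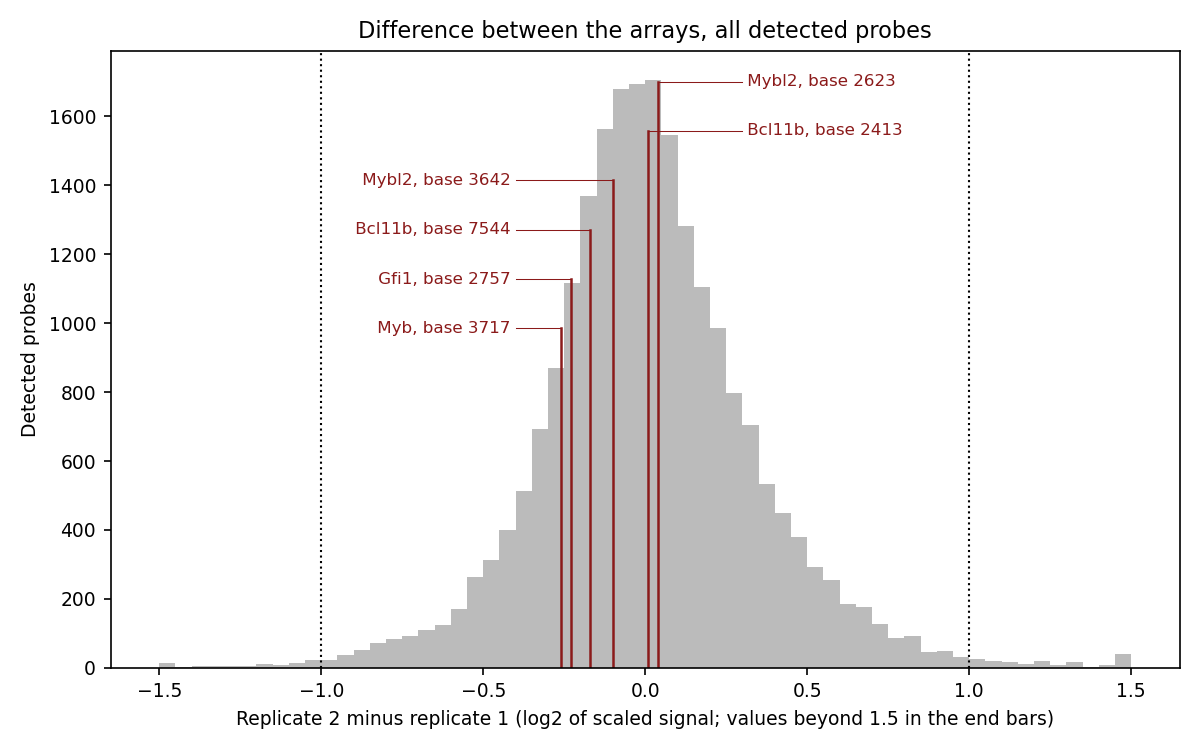
Histogram of the difference between the arrays (replicate 2 minus replicate 1, log2 of the scaled signal) over the 22321 detected probes, with the number of probes on the vertical axis. Red lines mark the 6 detected probes of Bcl11b, Gfi1, Myb and Mybl2, their heights only separate the names, and dotted lines mark a 2-fold difference. All 6 lie between -0.26 and 0.04.

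The surroundings of the regulators were read from 16 gene lists, 10 of partners and targets and 6 of cell type markers. They hold 192 entries, of which 191 are on the array, and 178 different genes, of which 123 were detected. A list is described only by how many of its members were detected beside the 51.7% of all named genes, and no set test was made.

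Every listed gene of the chromatin complexes that BCL11 proteins use was detected. The list for NuRD, a complex that combines nucleosome remodelling with histone deacetylation, holds 13 of its genes and not every subunit, and all 13 were detected. Its remodelling enzyme Chd4 had a value of 6.52 ± 0.03 and Chd3 of 5.79 ± 0.10. The scaffold proteins Mta1, Mta2 and Mta3 had 2.66 ± 0.35, 5.63 ± 0.09 and 2.91 ± 0.10, and the methyl-CpG-binding family member Mbd2 had 4.08 ± 0.16 (each SD, n = 2). The 14 genes listed for the BAF remodelling complex, again not every subunit, were detected too, or 12 of them where every probe of a gene is required. Among them were its ATPase Smarca4 at 7.55 ± 0.09, the core subunits Smarcb1 and Smarcc1 at 4.30 ± 0.04 and 3.81 ± 0.06, Smarcc2 at 0.18 ± 0.17, Smarcd1 at 1.38 ± 0.36 and Smarcd2 at 4.77 ± 0.09.

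Of the genes that BCL11B is known to repress as cells commit to the T lineage, 6 of 14 were detected. Id2, an inhibitor of E proteins, had signals of 2177 and 1728 and a value of 2.64 ± 0.15. The stem cell factor receptor Kit had 647 and 573 units and 0.97 ± 0.04, and Nfil3, a factor of natural killer cell development, had 474 and 349 units and 0.39 ± 0.23. The other 3 were dim: Zbtb16 (PLZF) with 41.8 and 48.2 units, and the signalling adaptors Tyrobp with 38.6 and 44.4 and Fcer1g with 74.9 and 78.7. These 3 lie above the highest negative control of replicate 1 and below that of replicate 2. The natural killer genes Il2rb, Klrd1, Ncr1 and Klrb1c were not well above background, and neither was Bcl11a, which is itself on this list. By the looser criterion of a positive and significant spot, 9 of the 14 counted as detected, where 67.5% of all named genes did.

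The cofactors of GFI1 were mostly detected, 11 of 13. The demethylase Kdm1a (LSD1) had signals of 10361 and 8109 and a value of 4.88 ± 0.17. The CoREST genes Rcor1, Rcor2 and Rcor3 had values of 3.78 ± 0.27, 3.93 ± 0.08 and 1.49 ± 0.13. The LSD1-complex protein Hmg20b had 4.69 ± 0.17. Ajuba, an adaptor protein, and Zbtb17 (MIZ1), a zinc finger factor, were not well above background, each with 1 probe.

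Of the genes that GFI1 is known to repress, 6 of 15 were detected. Id1 and Id2, both inhibitors of E proteins, had values of 2.39 ± 0.19 and 2.64 ± 0.15, and the pro-apoptotic gene Bax had 4.08 ± 0.06. Csf1r, the macrophage growth factor receptor, had 77.6 and 133 units and a value of -1.61 ± 0.63, and neutrophil elastase (Elane) had 115 and 144 units and -1.27 ± 0.32. Gfi1b, Spi1 (PU.1), Csf1 and Egr1 were not well above background. Id2 and Spi1 stand on the lists of both BCL11B and GFI1. Under the looser criterion of a positive and significant spot, 10 of the 15 counted as detected, where 67.5% of all named genes did.

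Partners of MYB were detected in 11 of 14 cases. The acetyltransferases Crebbp and Ep300, which MYB binds through its activation domain, had values of 4.08 ± 0.24 and 0.57 ± 0.11. The methyltransferase Kmt2a had 102 and 103 units and -1.60 ± 0.09, its partner Men1 had 4.22 ± 0.11, Taf12 had 4.02 ± 0.14 and the SUMO ligase Pias1 had 3.51 ± 0.11. Cebpb and Cebpa, the C/EBP factors that work with MYB in myeloid cells, were not well above background, nor was the kinase Hipk2. Of the genes that MYB is known to activate, 10 of 11 were detected: Myc had 4.71 ± 0.07, Kit 0.97 ± 0.04, the survival gene Bcl2 -0.89 ± 0.40, the co-receptor Cd4 5.71 ± 0.03 and the T-cell factor Gata3 4.14 ± 0.09. Rag2, also on this list, is given as knocked out by the labels, yet its brighter probe had 2132 and 2086 units and 2.76 ± 0.06. The other Rag2 probe, at base 3152, had 89.2 and 88.3 units and -1.81 ± 0.07. That probe was detected too, but lay below the highest negative control of replicate 2 (101). The progenitor marker Cd34 was not well above background.

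The genes around MYBL2 were detected in nearly every case. Of the MuvB and DREAM complexes, which hold MYBL2 or the repressors that take its place, 10 of 12 genes were detected. The MuvB core genes Lin9, Lin37, Lin52 and Lin54 had values of 1.61 ± 0.02, 3.68 ± 0.02, 0.88 ± 0.06 and 1.57 ± 0.23, and the E2F partners Tfdp1 and Tfdp2 had 4.36 ± 0.01 and -0.25 ± 0.02. E2f4 (46.8 and 9.47 units) was well above background on 1 array only, and so was E2f5 (35.6 and 105). Of the mitotic genes that MYBL2 activates with MuvB and FOXM1, 17 of 18 were detected. The cyclins Ccnb1, Ccnb2 and Ccna2 had 5.12 ± 0.13, 6.52 ± 0.03 and 5.91 ± 0.14, the kinase Cdk1 had 1.69 ± 0.34, and the mitotic kinases Plk1 and Aurka had 5.93 ± 0.09 and 5.59 ± 0.22. Aurkb was the exception, with 6.89 and 8.04 units at its single probe.

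The genes that MYBL1 activates in spermatocytes were mostly not detected, with 3 of 15 above background. Trip13, a meiotic checkpoint ATPase that mitotic cells also use, had a value of 4.59 ± 0.09, and the spindle checkpoint kinase Ttk, which is on the MYBL2 list as well, had -0.70 ± 0.47. Spo11, the enzyme that makes the DNA breaks of meiosis, had 375 and 388 units and 0.29 ± 0.12. Ccna1, Piwil1, Sycp1 and Sycp3, genes of meiosis and germ cell small RNAs, were not well above background. Under the looser criterion 8 of 15 passed, where 67.5% of all named genes did.

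**Figure D3:**
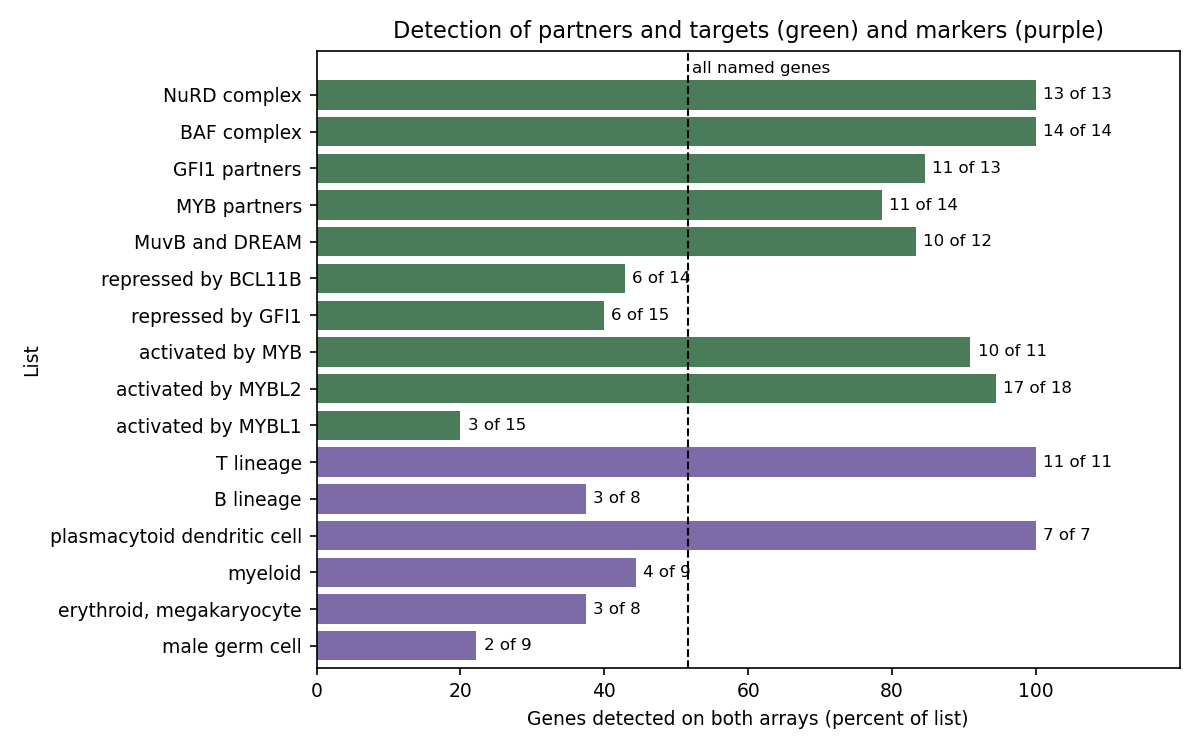
Percentage of each list's genes that were detected on both arrays, with partners and targets in green and cell type markers in purple, and the count beside each bar. The dashed line is the 51.7% of all named genes. NuRD, BAF, T-lineage and plasmacytoid dendritic cell lists reach 100%, and the MYBL1 and male germ cell lists lie lowest, at 3 of 15 and 2 of 9.

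Markers of the cell types in which the paralogues act were examined next. All 11 T-lineage markers were detected. Among them were the CD3 genes Cd3e, Cd3d and Cd3g at 8.31 ± 0.17, 8.91 ± 0.06 and 7.17 ± 0.03. The kinases Lck and Zap70 had 8.73 ± 0.19 and 6.52 ± 0.08, and Thy1 had 8.82 ± 0.05. All 7 plasmacytoid dendritic cell markers were detected as well, while Bcl11a, a regulator of those cells, was not. Siglech had 6.53 ± 0.31 with 1 of its 3 probes, Tcf4 1.83 ± 0.18 with 1 of 2, Bst2 4.36 ± 0.11, Irf8 2.08 ± 0.44 and Ly6d 6.54 ± 0.52. Spib had 64.6 and 210 units and -1.42 ± 1.29, a spread larger than for the others. Of 8 B-lineage markers, 3 were detected: the adaptor Blnk at 1.0 ± 0.09, and Vpreb1 and Cd79a at -1.81 ± 0.23 and -2.74 ± 0.11. Cd79a was detected with 1 of its 2 probes. On replicate 2, Vpreb1 (76.3 units) and Cd79a (42.5) lay below the highest negative control of that array (101). Pax5 and Ebf1, factors that define the lineage, were not well above background, nor was Ms4a1, and Cd79b was so on 1 array only.

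Of 9 myeloid markers 4 were detected: Elane and Csf1r as given above, Cd14 at -2.76 ± 0.13, and the integrin Itgam. Itgam had 6292 and 6868 units and a value of 4.40 ± 0.17 at its brightest probe. Itgam and Csf1r were each detected with 2 of 3 probes. Mpo, the granule enzyme, was well above background on 1 array only, and Lyz2, Cebpe, S100a8 and Ly6g on none. Of the 8 erythroid and megakaryocyte markers on the array 3 were detected: the erythropoietin receptor Epor at 3.98 ± 0.09, the factor Gata1 with 217 and 211 units at -0.54 ± 0.05, and Klf1 at -2.19 ± 0.05. Hba-a1, Itga2b, Pf4 and Gp9, products of mature red cells and platelets, were not well above background, as Gfi1b was not. Of 9 male germ cell markers 2 were detected: Stra8, a gene of meiotic entry, at 1.79 ± 0.30, and Prm1, a protamine, at -2.21 ± 0.24. Ddx4, Dazl, Sycp1 and Sycp3 were not. Cd14 (44.8 and 47.0 units), Klf1 (72.8 and 63.6) and Prm1 (62.3 and 72.5) were dim. These markers lay above the highest negative control of replicate 1 (15.1) and below that of replicate 2 (101).

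Other probes near the members were examined for detection of neighbouring genes. Within 100 kb of the member probes lie 22 other probes, of which 15 were detected, where 40.1% of all probes were. Detected were 1 of 1 near Bcl11a, 5 of 5 near Gfi1, 5 of 8 near Gfi1b, 1 of 2 near Myb, 2 of 3 near Mybl1 and 1 of 3 near Mybl2, and no other probe lay near Bcl11b. Around the undetected Gfi1b, probes of Gtf3c5, Tsc1, Ralgds (1 of 2 probes) and Cel were detected, Gtf3c5 with 8172 and 7997 units at its brighter probe. Ralgds (88.3 and 81.4 units) and Cel (51.7 and 47.5) were dim, below the highest negative control of replicate 2 (101). Near Mybl1, Vcpip1 had 969 and 705 units and a value of 1.41. The other detected probe there, of 1700034P13Rik, had 48.6 and 52.9 units, also below that control of replicate 2. Near the detected Mybl2, the germ cell gene Gtsf1l, with its probe 2.50 kb away, was not well above background, and Ift52, a gene of cilia, had 3.44. Near Myb, Ahi1 had 150 and 137 units and -1.12, and Gm10826 was not well above background.

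Promoter sequence was compared next, over the 250 bases before the annotated start, from RefSeq on build GRCm38.p6. Of the 7 genes 6 matched, Gfi1 with 2 starts, and Mybl1 did not. Letters were searched on both strands. The core bound by GFI1 proteins, AAATCA, was found in 12.4% of all 32851 such windows, and the MYB core, CAACNG, in 29.3%. An E2F site, spelled as TTTCGCG or as TTGGCGC or as TTCCCGC, was found in 6.24%. The CHR element that MuvB binds, TTTGAA, was found in 16%. TTGGCGG, a further E2F site, held by 2.17%, was added after the member sequences were seen. No match in a member's window overlapped another. Gfi1b, Myb and Mybl2 are printed because their windows hold the GFI1 core or an E2F site, with matches in capitals.
Gfi1b, - strand, chr2:28621983-28622232: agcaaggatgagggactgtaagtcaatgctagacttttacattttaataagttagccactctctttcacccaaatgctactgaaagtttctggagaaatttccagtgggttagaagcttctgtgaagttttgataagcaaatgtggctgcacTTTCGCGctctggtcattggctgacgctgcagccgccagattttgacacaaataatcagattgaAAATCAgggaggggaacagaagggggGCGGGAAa
Myb, - strand, chr10:21160985-21161234: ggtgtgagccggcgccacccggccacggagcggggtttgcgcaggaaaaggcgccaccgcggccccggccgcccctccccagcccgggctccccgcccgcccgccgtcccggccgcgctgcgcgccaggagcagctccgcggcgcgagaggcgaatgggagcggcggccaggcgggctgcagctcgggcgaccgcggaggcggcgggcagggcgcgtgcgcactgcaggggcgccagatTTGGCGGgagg
Mybl2, + strand, chr2:163054385-163054634: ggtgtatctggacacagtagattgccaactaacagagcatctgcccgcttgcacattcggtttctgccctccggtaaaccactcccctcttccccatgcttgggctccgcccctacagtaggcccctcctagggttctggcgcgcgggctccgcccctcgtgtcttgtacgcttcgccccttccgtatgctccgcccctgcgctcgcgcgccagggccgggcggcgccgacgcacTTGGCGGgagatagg
The undetected Gfi1b held AAATCA 34 bases before its start, and E2F letters at 98 and 8 bases. The detected Myb and Mybl2 held TTGGCGG at 11 and 15 bases. Bcl11b held CAACNG at 15 bases and TTTGAA at 238 and 88, and the windows of Bcl11a and Gfi1 held none of the searched letters.

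Base composition of the windows overlapped between detected and undetected members. The CpG ratio, observed over expected from the base counts, was 0.97 for Myb, 0.88 for Mybl2, 0.73 for Bcl11a and 0.72 for Bcl11b, all above the median window at 0.37. It was 0.44 and 0.59 for Gfi1 and 0.42 for Gfi1b. The paralogues Bcl11a and Bcl11b had close ratios and opposite calls. Gfi1b lay close to 1 start of Gfi1 and below the other. Whether base composition goes with detection was not tested. GC content was 81.2% for Myb, 65.6% for Mybl2, 62.0% for Bcl11a, 57.6% and 59.2% for Gfi1, 44.8% for Bcl11b and 44.4% for Gfi1b, around a median of 52.4%.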

How the data were processed

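The members and lists were chosen with earlier results of these data known. Per the file headers, the authors' intensity values come from Agilent Feature Extraction 10.5.1.1 (1 colour), which subtracted a fitted background, removed a spatial trend and put surrogates near background. The p-value of each spot against background and the background calls were deposited in the same files. The authors also deposited log2 values of the same spots, with offset and centring unstated. Their slope against log2 of the scanner signal was 0.997 on replicate 1 and 1.005 on replicate 2, over medians of 5.18 on both arrays.

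Of 62976 spots, 59305 were not controls and formed 55681 probes. Outlier-flagged spots were dropped, which touched no member, and no spot was saturated. Well above background were 23649 probes (42.5%) on replicate 1 and 22923 (41.2%) on replicate 2. A probe with several spots was detected when at least 50% of them were. For a gene with several detected probes the brightest gave its value. RefSeq (GRCm38.p6) named 31220 probes, and Hbb-b1 matched none. Both arrays lie on 1 slide. Both genes labelled as knocked out were detected, Trp53 with 746 and 996 units, and where the probes lie relative to the deletions is not given in the sources used here.

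All members are named with every probe. Of each list, the first 6 detected and first 4 undetected genes in a fixed order are named, and all of a class of 5 or fewer. A few genes under this rule are not reported here but are kept in every count. Other genes, those near the members or sharing probe sequence, were chosen after their values were seen. Proteins were not used here, so probes were not placed on them. With 1 group no gene could be named for a like pattern. Python 3.11.15 (also for quantile normalization) and limma 3.58.1 (normexp) were used, and the value and detection rules were tested on simulated arrays. The number of arrays limits the precision.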

Additional observations from a re-analysis of the deposited data

Results flagged for a closer look

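Among the neighbouring probes counted above, 2 have no gene name and were well above background on both arrays. A probe of TC1639827 lay 90.7 kb from the probes of Bcl11a, on the same chromosome and strand. It had 1030 units on replicate 1 and 1082 on replicate 2, a value of 1.76, above every negative control spot. All 3 Bcl11a probes were not well above background. Distances were taken to the members' probes and not to the ends of the genes. Probe A_55_P2059283, 9.52 kb from the Gfi1 probe and on the same strand, had 78.8 and 79.9 units and a value of -1.97, above the highest negative control of replicate 1 (15.1) but below that of replicate 2 (101). Neither probe matched a RefSeq promoter window, and whether they read parts of the neighbouring genes was not tested.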

How the results depend on the processing

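The number of detected members stayed at 4 genes and 6 probes under every alternative run except the criterion of a positive and significant spot, which gave 5 and 7 by adding Mybl1. The number of detected list genes, 123, ranged from 111 (every probe required) to 147 (positive and significant), and was 126 without replicate 1 and 125 without replicate 2. Requiring a signal above every negative control, which 45.8% of all named genes met, left 3 of the genes repressed by BCL11B. Of the markers it left 1 B-lineage, 3 myeloid, 2 erythroid and megakaryocyte and 1 germ cell gene. Requiring every probe left 2 myeloid markers (44.6% of all named genes). The positive and significant criterion raised the genes repressed by BCL11B to 9. B-lineage markers rose to 6, myeloid to 7, erythroid and megakaryocyte to 6 and germ cell to 4, as the share of all named genes rose to 67.5%. The median difference of the 6 member probes, -0.14, ranged from -0.36 (scaling on the array median, which moved all detected probes to -0.23) to -0.09 (quantile normalization). No member probe passed 2-fold under any scaling. Of 36 differences, 4 changed sign, for Bcl11b at base 2413 and Mybl2 at base 2623 under the array median and normexp. Values move with the zero of each scale: Myb was 2.59 against the 75th percentile of detected probes, 10.09 against the array median, 5.64 after normexp and 14.38 in the authors' deposited table. No paired analysis was possible because both samples belong to 1 group. Signals near background limit the 5 undetected probes to bounds.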
